A study of Homo sapiens with 6 samples.

Results

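ERK feedback regulators are the genes that the RAS-RAF-MEK-ERK kinase cascade switches on and whose products then restrain it or carry its signal on to transcription. The 10 genes were taken by symbol from a table of 22989 genes: the MAP kinase phosphatases Dusp1, Dusp4, Dusp5 and Dusp6, the Sprouty genes Spry1, Spry2 and Spry4, the Spred genes Spred1 and Spred2, and the ETS factor Etv4. All 10 were found and all 10 passed the filter on low counts. To learn how the long non-coding RNA LINC00115 acts, 3 LINC00115 KD and 3 WT libraries were made. Both groups are described as MDA-MB-231 cells, a triple-negative breast cancer line of human origin. The cells of both groups are also described as resistant to paclitaxel (PTX) and as breast cancer stem-like cells (BCSC), obtained by sorting for aldehyde dehydrogenase activity. The identity of the cells rests on these descriptions. In the KD group LINC00115 was targeted by a short hairpin RNA, and the controls have the genotype WT in the labels. The paper names the hairpin used for its RNA-seq, but the KD libraries are numbered in the style of its hairpin names. Whether all KD libraries carry the same hairpin is thus unclear. Whether the controls of these libraries carry a control shRNA is not given in the sources used here. No source used here says whether the 3 libraries of a group came from separate cultures, so that p-values measure only the spread between these libraries.

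When a growth factor receptor activates RAS, ERK is phosphorylated and enters the nucleus, where it induces transcripts within minutes. Dual-specificity phosphatases of the Dusp family remove the activating phosphates from ERK and related kinases. Sprouty proteins act upstream, between the receptor and RAS or RAF, and Spred proteins bring the RAS-inactivating protein neurofibromin to the membrane. Etv4 belongs to the PEA3 group of ETS transcription factors and acts downstream of ERK. The RNA levels of these genes are widely read as a record of ERK output, in breast cancer cells among others.

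The libraries held between 36979221 and 38799331 counts, and the replicates were close, with a biological coefficient of variation of 5.21%. The gene symbols are in the style of mouse genes, 4650 of them Gm-numbered, so that the species to which the reads were assigned does not match the human label. All 10 ERK feedback regulators equal a human symbol apart from case. The table held 0 rows named LINC00115, so the knockdown could not be checked and each direction rests on the labels. Of 9 markers of the labelled line and of aldehyde dehydrogenase activity, Vim, Cd44, Krt8, Krt18, Axl and Plau were high in every library, but Aldh1a3 had 0 to 4 counts. Aldh1a1 had 8 to 17 counts in the WT libraries and 39 to 52 in the KD libraries, and Krt7 had 1 to 4 in WT and 49 to 74 in KD. Both were thus low but higher in KD, with log2 fold changes of 1.82 for Aldh1a1 and 4.51 for Krt7.

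Of the 10 ERK feedback regulators, Spry1 alone was called different between LINC00115 KD and WT, with 2.74-fold more RNA in the KD libraries. Smaller changes ran both ways: Spry4 also rose, Dusp1, Dusp4, Spry2, Spred1, Spred2 and Etv4 fell by between 10.8% and 37.3%, and Dusp5 and Dusp6 did not pass the test. A call required both a change of more than 2-fold and an adjusted p below 0.05 (edgeR's quasi-likelihood test, Benjamini-Hochberg over the 13497 genes tested). By that rule 1 of 10 members was called higher and 0 lower, also in DESeq2 (8 members had an unadjusted p under 0.05), against a background of 20.2% of all genes tested (10.2% higher and 9.98% lower). Without the threshold on the fold change, 6 members were lower and 2 higher, against a background of 73.4% (36.7% lower and 36.7% higher). By size alone, 2 members (Spry1 and Spry2) changed by over 1.5-fold, against 40.1% of all genes. None of these shares lies far above that of all genes, so they do not set the members apart. Their median log2 fold change was −0.21, that of all genes tested −0.0061. The median size of the change, taken without its sign, was 0.30 for the members and 0.45 for all genes tested.

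**Figure D1:**
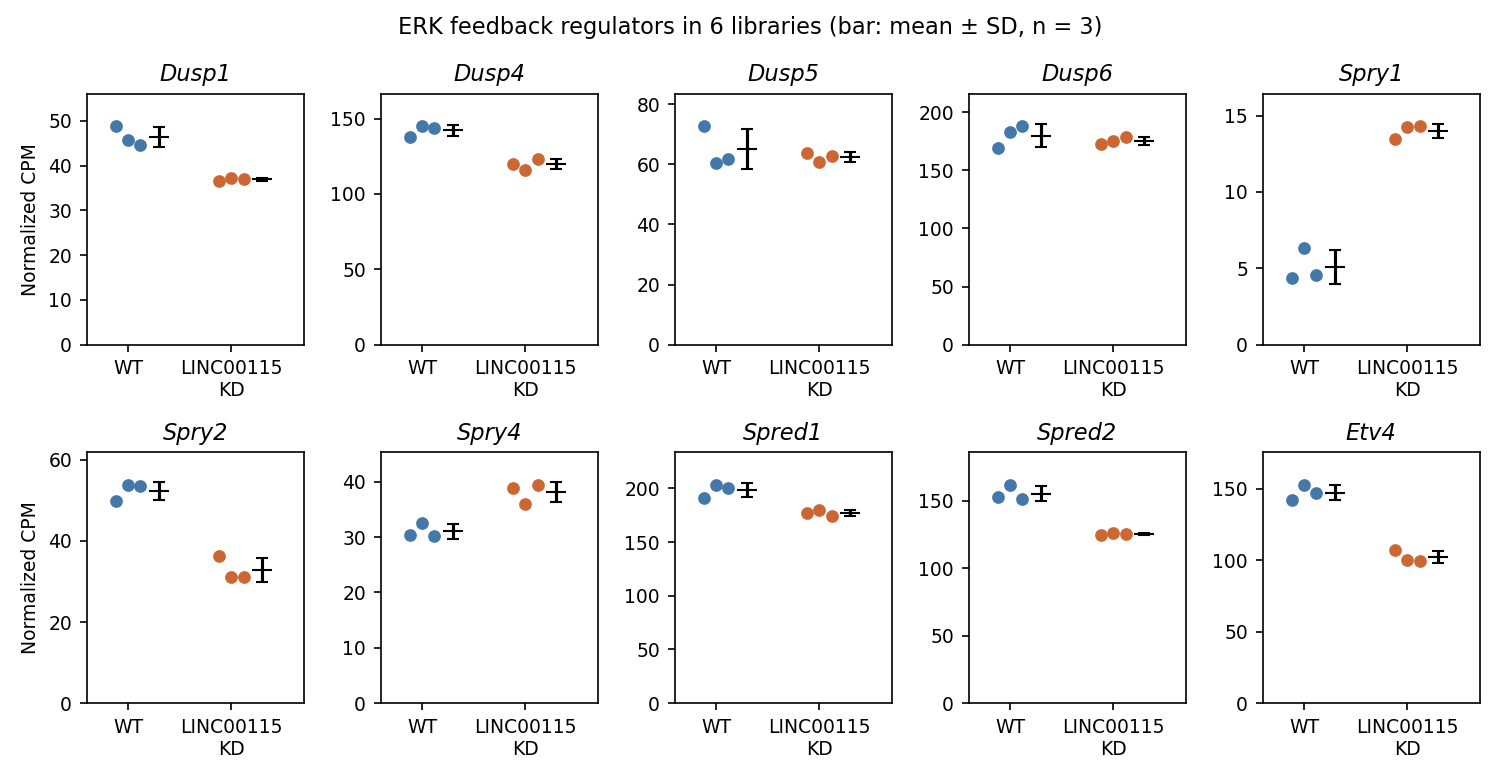
Normalized CPM (counts scaled to library size, with TMM factors) of the 10 ERK feedback regulators on the vertical axis of each panel, for the 3 WT libraries (blue) and the 3 LINC00115 KD libraries (orange), with a bar for mean ± SD. The groups are far apart for Spry1, where the KD libraries lie between 13.4 and 14.3 and the WT libraries between 4.35 and 6.36, and they overlap for Dusp5 and Dusp6.

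Among the phosphatases, Dusp1 encodes a nuclear enzyme that acts on ERK, p38 and JNK. Its RNA stood at 48.8, 45.6 and 44.7 normalized CPM in WT replicates 1 to 3 and at 36.6, 37.2 and 37.1 in KD replicates 1 to 3. Every KD library lay under every WT library. Dusp1 fell by 20.3%, a log2 fold change of −0.33 (SE 0.060, adjusted p = 9.67e-06, edgeR's quasi-likelihood test). Dusp4, which encodes another nuclear phosphatase of ERK, read 138, 145 and 144 normalized CPM in WT and 120, 116 and 123 in KD. The groups again did not overlap, and Dusp4 fell by 15.8% (log2 fold change −0.25, SE 0.041, adjusted p = 1.62e-06, edgeR).

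Of the 4 phosphatases among the members, Dusp5 and Dusp6 did not pass the test. Dusp5, whose product acts on ERK in the nucleus, had 72.6, 60.5 and 61.7 normalized CPM in WT and 63.8, 60.6 and 62.9 in KD. WT replicate 1 was high and the other WT libraries lay among or beside the KD libraries. The log2 fold change of Dusp5 was −0.057, with a 95% interval from −0.17 to 0.060 (adjusted p = 0.378, edgeR), and it took the other sign, 0.031, without WT replicate 1. Dusp6, whose product holds ERK in the cytoplasm and is among the usual readouts of ERK output, had 169, 183 and 188 normalized CPM in WT and 172, 175 and 179 in KD. Here WT replicate 1 was the lowest of all 6 libraries, and the KD libraries lay inside the WT range. The log2 fold change of Dusp6 was −0.037, with a 95% interval from −0.12 to 0.044 (adjusted p = 0.411, edgeR), and −0.079 without WT replicate 1, where the adjusted p came to 0.04999.

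The Sprouty genes moved in opposite directions. Spry1 had 4.35, 6.36 and 4.58 normalized CPM in the WT libraries, from 164, 240 and 173 counts, and 13.4, 14.2 and 14.3 in the KD libraries, from 520, 523 and 543 counts. The lowest KD library stood well above the highest WT library, WT replicate 2. Spry1 rose with a log2 fold change of 1.46 (SE 0.13, adjusted p = 4.85e-12, edgeR), and with any library left out the change stayed between 1.36 and 1.65. It was the only member that passed a test against a fold change of 1.5 (adjusted p = 8.26e-08, edgeR's glmTreat). Of all 13497 genes tested, 1730 passed that test as lower and 1856 as higher, so passing it does not set Spry1 apart.

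Spry2 went the other way and had the largest fall of the 10. It read 49.8, 53.8 and 53.5 normalized CPM in WT and 36.3, 31.1 and 31.1 in KD. KD replicate 1 was the highest of its group, yet under every WT library. Spry2 fell by 37.3%, a log2 fold change of −0.67 (SE 0.065, adjusted p = 2.36e-11, edgeR), and did not pass the test against a fold change of 1.5 (adjusted p = 0.0978, edgeR's glmTreat). Spry4 had 30.3, 32.6 and 30.2 normalized CPM in WT and 39.0, 36.0 and 39.5 in KD, where all 3 libraries were above the WT libraries. Spry4 rose by 23.0% (log2 fold change 0.30, SE 0.065, adjusted p = 0.000131, edgeR).

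Because both genes are counted in the same library, the ratio of their counts does not depend on how libraries are scaled. There were 0.0875, 0.118 and 0.0856 counts of Spry1 for each count of Spry2 in the WT libraries and 0.370, 0.459 and 0.459 in the KD libraries, a 4.45-fold difference. The ratio of Spry4 to Spry2 lay between 0.564 and 0.610 in WT and between 1.07 and 1.27 in KD, a 1.96-fold difference. Neither ratio overlapped between the groups. This follows from the single genes, since Spry1 and Spry4 were higher and Spry2 lower in every KD library, so it is no separate result. How often ratios of other gene pairs overlap was not computed. The exact two-sided permutation p was 0.1 for each of 7 ratios computed, also 0.1 after Benjamini-Hochberg adjustment over them, which is the smallest that 3 libraries against 3 allow. These ratios were chosen after the values were seen, and they compare the change of the genes, not their levels, since counts were not divided by transcript length.

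**Figure D2:**
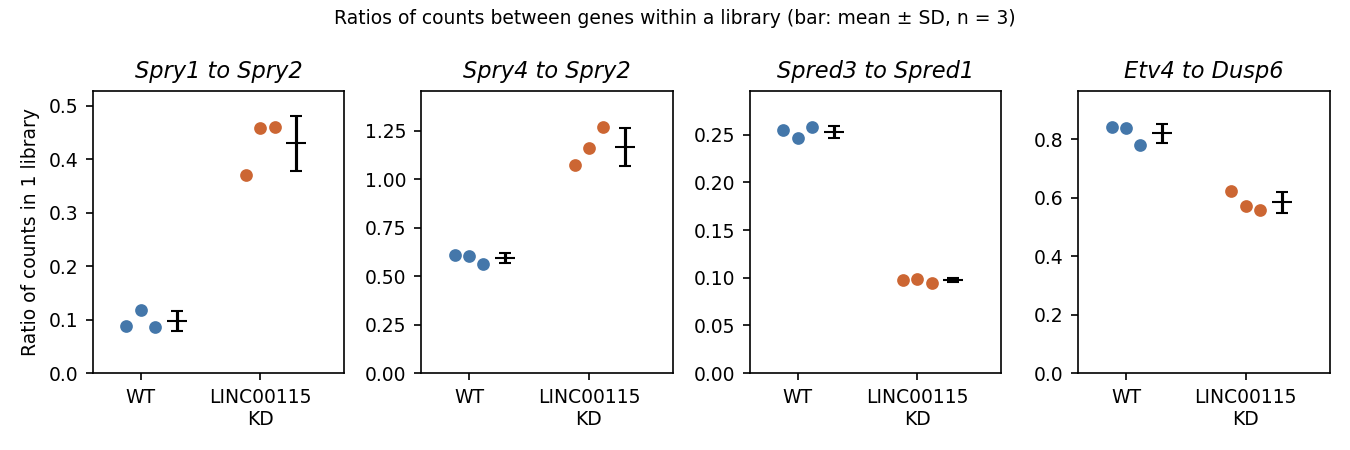
Ratio of the counts of a pair of genes within each library (vertical axis, no unit), for WT (blue) and LINC00115 KD (orange), with a bar for mean ± SD. The ratio of Spry1 to Spry2 moved from 0.0970 to 0.429 and that of Spred3 to Spred1 from 0.253 to 0.0972, with no overlap between the groups.

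Spred1 and Spred2, whose products hold RAS in check through neurofibromin, were both lower. Spred1 read 191, 203 and 201 normalized CPM in WT and 177, 180 and 174 in KD. The groups did not overlap, but Spred1 had the smallest change past the test, falling by 10.8% (log2 fold change −0.17, SE 0.037, adjusted p = 0.000182, edgeR). Spred2 had 153, 162 and 151 normalized CPM in WT and 125, 126 and 126 in KD. The 3 KD libraries of Spred2 were almost alike and under every WT library. Spred2 fell by 19.2% (log2 fold change −0.31, SE 0.040, adjusted p = 1.87e-08, edgeR).

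Etv4, the transcription factor of the set, had 142, 153 and 147 normalized CPM in WT and 108, 99.9 and 99.7 in KD. All KD libraries were lower, and the difference of the means was several times the SD of either group. Etv4 fell by 30.5% (log2 fold change −0.52, SE 0.043, adjusted p = 4.20e-13, edgeR). Within a library, the ratio of Etv4 to Dusp6 counts fell from 0.820 ± 0.0330 to 0.584 ± 0.0352 (SD, n = 3 libraries each), with no overlap and an exact permutation p of 0.1.

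**Figure D3:**
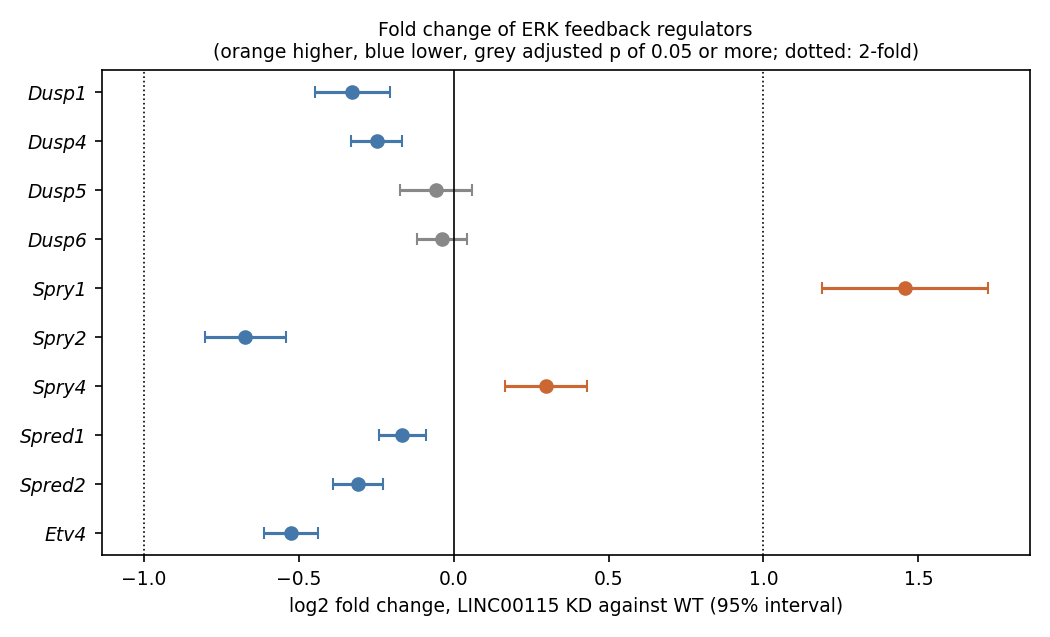
Log2 fold change of each ERK feedback regulator in LINC00115 KD against WT (horizontal axis), with its 95% interval; dotted lines mark a 2-fold change. The interval of Spry1, from 1.19 to 1.72, lies beyond the 2-fold line, and those of Dusp5 and Dusp6 hold 0.

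For 8 of the 10 members the libraries of the groups did not overlap, 6 lower and 2 higher in KD, against a background of 75.6% of all genes tested (37.8% lower and 37.8% higher). Genes of other cell types also differed between the groups. Their counts below include genes too low to be tested, unlike the background share. All 10 of a list of 10 lung epithelial genes were higher in every KD library, with a summed level of 73.6 to 84.3 normalized CPM in KD and 1.73 to 2.04 in WT, where Scgb1a1, Scgb3a2, Sftpa1, Sftpb, Sftpc and Sftpd had 0 counts. Of 10 kidney genes, 7 were higher and 1, Cubn, lower (41.2 to 45.3 in KD, 16.7 to 19.5 in WT). Kap, Umod, Slc22a6 and Aqp2 were among those at 0 counts in WT, but Aqp2 had only 0 to 4 counts in KD. Most of the WT level came from Cubn and Aqp1, with means of 8.28 and 8.21 normalized CPM. Of 10 leukocyte genes, 4 were higher and 1 lower (144 to 160 in KD, 71.9 to 86.0 in WT, with S100a8 at a mean of 95.2 in KD and 33.0 in WT), while Cd3e had 0 counts in all 6 libraries. The lower gene, Csf1r, had at most 3 counts in any library and was not tested. Ptprc (5 to 12 counts in WT, 8 to 13 in KD) and Itgam (3 to 10 in WT, 2 to 12 in KD) were low and overlapped between the groups. Of 6 endothelial genes, 2 were higher (57.3 to 59.7 in KD, nearly all from Cdh5, and 0.715 to 1.19 in WT). The other, Kdr, had 0 to 1 counts in WT and 2 to 10 in KD and was not tested. Emcn had 0 counts in WT and 0 to 1 in KD. Pecam1 (6 to 11 counts in WT, 7 to 19 in KD), Vwf (11 to 20 in WT, 10 to 19 in KD) and Tek (0 to 1 in WT, 0 to 2 in KD) were low and overlapped. Of 7 fibroblast genes, 3 were lower (76.4 to 78.4 in KD, 175 to 193 in WT, nearly all from Pdgfra). Of these 3, Pdgfrb did not pass the test (adjusted p = 0.371, edgeR). Lum had 0 to 2 counts in WT and 0 in KD, and the collagen genes Col1a1, Col1a2 and Col3a1 were near 0 and overlapping. Of 3 luminal receptor genes, 2 were higher (29.8 to 30.4 in KD, 16.6 to 19.0 in WT), while Pgr had 0 to 3 counts in WT and 0 in KD. Of the 9 markers of the labelled line, 6 were higher and 1 lower (6639 to 6744 in KD, 5935 to 5980 in WT). The part of these genes' cell types in the changes of Spry1 and the other members was not tested, and in bulk RNA fewer cells of a type and less RNA per cell cannot be told apart.

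The promoters of SPRY1 and SPRY2 are shown because these members moved most and in opposite directions, and that of DUSP1 because it alone held a cyclic AMP response element. Since the table's symbols are in mouse style and the labels say human, the windows are those of the human gene of the same name. RefSeq windows (GRCh38.p14) were matched by human symbol for 7 of the 10 members, with 11 annotated starts, and not for DUSP4, DUSP5 and ETV4. The 250 bases before the outermost start are given 5′ to 3′ on the strand of the gene. Capitals mark the motifs found on either strand: the ETS core CCGGAA bound by factors such as Etv4, the cyclic AMP response element (CRE) TGACGTCA, and the hypoxia response core (HRE) ACGTG or GCGTG. The windows are chr4:123396545-123396794 on the plus strand for SPRY1, chr13:80341127-80341376 on the minus strand for SPRY2, and chr5:172771196-172771445 on the minus strand for DUSP1.
SPRY1: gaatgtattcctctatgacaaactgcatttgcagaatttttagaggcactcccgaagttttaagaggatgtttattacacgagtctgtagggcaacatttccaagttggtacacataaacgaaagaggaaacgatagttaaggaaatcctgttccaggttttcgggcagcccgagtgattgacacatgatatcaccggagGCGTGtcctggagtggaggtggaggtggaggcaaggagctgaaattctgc
SPRY2: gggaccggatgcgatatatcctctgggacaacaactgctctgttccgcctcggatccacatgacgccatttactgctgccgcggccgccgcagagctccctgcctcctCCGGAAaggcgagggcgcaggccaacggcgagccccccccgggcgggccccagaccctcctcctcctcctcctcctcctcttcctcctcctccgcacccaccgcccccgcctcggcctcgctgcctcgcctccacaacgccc
DUSP1: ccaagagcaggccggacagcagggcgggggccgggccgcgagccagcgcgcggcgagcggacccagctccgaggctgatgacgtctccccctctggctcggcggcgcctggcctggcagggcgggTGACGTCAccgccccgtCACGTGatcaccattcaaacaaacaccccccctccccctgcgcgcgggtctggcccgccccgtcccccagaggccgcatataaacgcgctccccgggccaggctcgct

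The SPRY1 window held an HRE core that began 50 bases before the start, and the SPRY2 window an ETS core at 142 bases. The DUSP1 window held a CRE at 125 bases and, at 108 bases, a palindrome that reads as an HRE core on both strands and was counted as 1. Over all windows of the members, an ETS core was found for 2 of 7 genes (SPRY1, at an inner start, and SPRY2), a CRE for DUSP1, and an HRE core for DUSP1, DUSP6, SPRED2 and SPRY1. In 35116 RefSeq windows of the same length, 14.5% held an ETS core, 1.65% a CRE and 43.2% an HRE core. These shares are per window, while the members are counted per gene over 11 windows, so the counts cannot be set directly against them. The AP-1 site TGACTCA (4.2% of windows) was found in no window of a member. Of the serum response element only 1 exact spelling was searched, which 11 of the 35116 windows held (0.0313%). It was also found in no window of a member. For so rare a spelling this result was nearly fixed beforehand, so it cannot show whether these promoters lack serum response elements. The 4.2% share of the AP-1 site is also too low for its absence from 11 windows to say much. All motifs reported are matches of letters in human sequence, and no binding was measured.

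The same families hold further genes, which were listed by name for comparison. Of 6 other MAP kinase phosphatases, all passed the test, with 5 higher and 1 lower in KD and a median log2 fold change of 0.63, where 73.4% of all genes passed. Of these 6, 2 were called, against 20.2% of all genes. Dusp7, whose product is a close relative of that of Dusp6 and selective for ERK in the cytoplasm, had 46.9, 52.0 and 54.1 normalized CPM in WT and 179, 174 and 181 in KD. It was 3.49-fold higher in KD (log2 fold change 1.80, SE 0.047, adjusted p = 4.20e-27, edgeR), while Dusp6 in the same libraries stayed inside its WT range. Dusp2, an inducible nuclear phosphatase, was also called higher, from few counts: 52, 50 and 25 in WT and 102, 120 and 165 in KD (log2 fold change 1.60, SE 0.29, adjusted p = 1.02e-05, edgeR). Dusp9 (log2 fold change 0.84), Dusp8 (0.42) and Dusp16 (0.30) rose and Dusp10 fell (−0.78), each by less than 2-fold, and Dusp10, Dusp8 and Dusp16 are known mainly as phosphatases of p38 and JNK.

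Spred3, the third Spred gene, fell far more than its relatives. It had 48.7, 50.1 and 51.7 normalized CPM in WT and 17.3, 17.7 and 16.5 in KD, a log2 fold change of −1.54 (SE 0.067, adjusted p = 1.20e-20, edgeR). The ratio of Spred3 to Spred1 counts moved from between 0.246 and 0.258 in WT to between 0.0949 and 0.0988 in KD. Among the PEA3 factors, Etv5 fell together with Etv4 (126.8 ± 5.03 to 77.1 ± 3.34 normalized CPM, SD, n = 3 each, log2 fold change −0.72). Etv1 was higher (log2 fold change 0.23, adjusted p = 0.00518, edgeR), but by less than 2-fold and with groups that overlapped, and its adjusted p was over 0.05 without WT replicate 1 or without KD replicate 1 (up to 0.0649). Of these 3 relatives, 2 were lower and 1 higher at an adjusted p under 0.05, a threshold that 73.4% of all genes tested passed. Both thresholds were passed by 1 of the 3, Spred3, against 20.2% of all genes.

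No gene of the cascade that the regulators act on was called. The 22 genes of the cascade ran from adaptors such as Grb2 to the ERK kinase gene Mapk3. Of these 22, 0 passed both thresholds in edgeR or in DESeq2, where 20.2% of all genes tested passed in edgeR (13 of the 22 had an unadjusted p under 0.05). At an adjusted p under 0.05, 7 were lower and 5 higher, a share of 54.5% against 73.4% of all genes, and the median log2 fold change was −0.067. Mapk3 fell most among those past the test, by 0.74 on the log2 scale, and Sos2, an exchange factor for RAS, rose most, by 0.87. Ksr2, a scaffold of the cascade with under 1 normalized CPM on average in either group, had a larger value, 1.17, that did not pass the test (adjusted p = 0.0542, edgeR) except without KD replicate 3. Sos1, the other exchange factor of that family, did not pass the test, with a log2 fold change of 0.055.

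Of 14 other negative regulators of RAS and ERK, 13 could be tested, with 6 lower and 5 higher at an adjusted p under 0.05 (84.6%, against 73.4% of all genes) and a median log2 fold change of −0.076. Il17rd, also known as Sef, an inhibitor of FGF signalling, was the only one called (7.69%, against 20.2% of all genes). It fell from 80, 54 and 70 counts to 23, 25 and 53 (log2 fold change −1.01, SE 0.37, adjusted p = 0.0154, edgeR). That call rests on few counts and was lost without WT replicate 1 or 3 and without KD replicate 1 or 2. Over all settings, those that kept the call included, the log2 fold change of Il17rd lay between −1.49 and −0.78.

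Target genes of ERK moved both ways, as did all genes tested. Among 17 targets outside the feedback set, 10 rose and 5 fell past an adjusted p of 0.05 (88.2%, against 73.4% of all genes, 36.7% each way), with a median log2 fold change of 0.37. Both thresholds were passed by 17.6% of them, against 20.2% of all genes. Called lower were Egr3, an early-response transcription factor (9.35 ± 0.930 to 1.84 ± 0.140 normalized CPM, log2 fold change −2.34), and Ier3, an early-response survival gene (653 ± 6.54 to 190 ± 14.0, −1.78). Called higher was Epha4, an ephrin receptor (1.21 ± 0.439 to 5.27 ± 0.618, SD, n = 3 each, 2.12). Egr1, also an early-response factor, rose by 0.79 on the log2 scale, Myc by 0.92, and Ccnd1, which encodes cyclin D, by 0.39. Egr2 and Junb fell, with log2 fold changes of −0.88 and −0.53 and no overlap between the groups. Fos stood at 2.29 ± 0.509 in WT and 2.29 ± 0.553 in KD (adjusted p = 0.989, edgeR, 95% interval of the log2 fold change from −0.54 to 0.55). Over the 61 genes tested from all 5 lists, 4 were called lower and 3 higher, 11.5% against 20.2% of all genes.

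**Figure D4:**
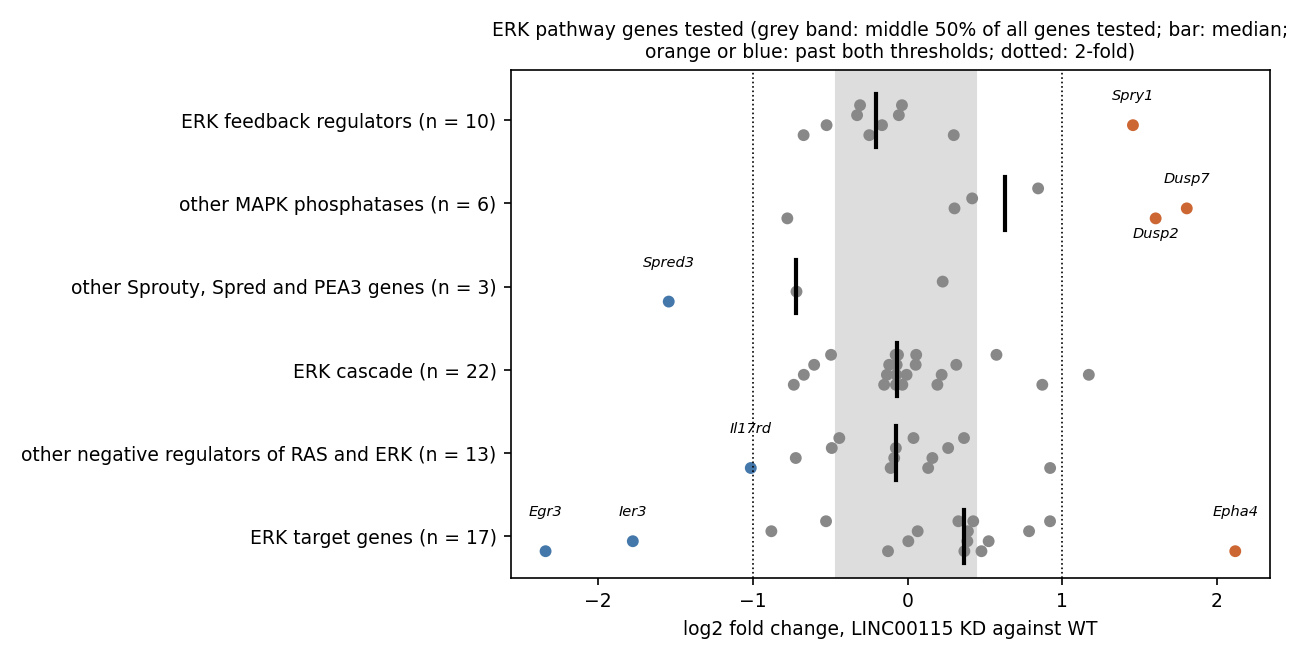
Log2 fold change in LINC00115 KD against WT (horizontal axis) of the genes tested in each list, with the median as a black bar and the middle 50% of all genes tested as a grey band. Named points passed both thresholds: Spry1, Dusp2, Dusp7 and Epha4 higher, and Spred3, Il17rd, Egr3 and Ier3 lower.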

How the data were processed

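RNA-seq read counts of 3 LINC00115 KD and 3 WT libraries were analysed. Per the study's methods, the authors trimmed adapters and mapped reads with HISAT2 at default settings to hg19, while the submitters' processing notes name hg38, featureCounts and DESeq2. They deposited 1 table of whole-number counts per gene symbol, without normalization. Neither annotation nor strand setting is given in the sources used here, so overlapping genes may share counts. The columns of values not used number 0. Library preparation kits differ between the labels and the paper. Column names equal the sample descriptions.

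edgeR 4.0.16 in R 4.3.3 was run on the counts: filterByExpr (minimum count 10, minimum total 15), TMM, quasi-likelihood test of group and Benjamini-Hochberg adjustment over 13497 genes. Thresholds follow the study's methods. The SE is the log2 fold change divided by the root of F. Library totals (36979221 to 38799331) limit the precision. Alternatives were DESeq2 1.42.0, other scalings and filters, replicates left out, a replicate block and glmTreat. The pipeline was tested on simulated data. Named are all 10 members, genes called in the 5 other lists, and a few that were chosen after their values were seen. Members and lists were chosen with earlier results of these data known. No library was a copy of another: chi-square over its degrees of freedom was 3.88 to 7.60 for pairs within a group. Of the 63 genes in the other lists, 62 symbols matched a row and 61 were tested. Some genes of the lists are counted but not reported here by name.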

Additional observations from a re-analysis of the deposited data

How the results depend on the processing

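Over 14 alternatives, Spry1 remained the 1 member called higher and 0 members were called lower, also with each library left out. The number of members past an adjusted p of 0.05 was 6 lower and 2 higher in every alternative except 2: without WT replicate 1, where Dusp6 made 7 lower, and with a test against a fold change of 1.5 (glmTreat), where 0 were lower and 1 higher. With each library left out, the log2 fold change of Dusp5 ranged from −0.10 to 0.031. That test against a fold change of 1.5, which needs no fold of 2, called 9 lower and 8 higher of the 61 other ERK pathway genes tested. Of all 13497 genes tested it called 1730 lower and 1856 higher. With at least 10 counts in every sample, which removes genes absent from a group, 903 of all genes were called higher instead of 1381, and 919 lower instead of 1347. Scaling moved the median of all genes by at most 0.041 on the log2 scale and changed no sign among the members. Of 140 member values under the alternatives, 131 kept direction and side of the threshold. Over all genes tested, libraries of the same number did not deviate together (correlations from −0.018 to 0.0041, and none correlated best with its own number). These values show no pairing by number, but they cannot show whether libraries shared a culture or a batch. With the replicate number as a block, members past the threshold stayed at 6 lower and 2 higher, with 1 called higher and 0 lower, and other pathway genes at 4 called lower and 3 higher; over all genes, 1316 were called lower and 1360 higher.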

Other observations

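The table holds 15 further genes named Dusp or Etv outside the lists above, mostly atypical dual-specificity phosphatases, which were looked at after the values were seen. Of the 13 that passed the filter on low counts, 2 were called higher in LINC00115 KD and 0 lower, 15.4% against 20.2% of all genes tested. Dusp3, a small phosphatase that acts on ERK and JNK in the nucleus, stood at 56.0, 59.7 and 57.2 normalized CPM in WT and at 131, 123 and 124 in KD, a log2 fold change of 1.13 (SE 0.046, adjusted p = 1.87e-21, edgeR's quasi-likelihood test). Dusp12 rose from 5.75 ± 0.677 to 12.9 ± 2.58 normalized CPM (SD, n = 3 each, log2 fold change 1.17). Below a 2-fold change, Etv6, an ETS repressor, fell from 91.2 ± 0.929 to 55.7 ± 1.13 and Dusp14 from 32.9 ± 4.53 to 22.3 ± 2.13 normalized CPM, each with no overlap between the groups.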
